A study of Mus musculus with 9 samples.

Results

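The 33 genes described here are transcripts that the liver parenchymal cell, the hepatocyte, makes for export and for metabolism, and they were read out in RNA of liver macrophages. They were chosen as abundant hepatocyte products outside the acute phase response, with earlier results of these data known. They are 33 of the 56691 genes in the count table. All 33 were found, all passed the filter on low counts, and each had counts in every library. Macrophages were isolated from mouse liver at 0, 24 and 48 h after partial hepatectomy (PHx), an operation that removes part of the liver and is followed by regrowth. By the study's methods the animals were young adult male C57BL/6 mice, the liver was digested with collagenase, hepatocytes were spun out at low speed, and cells positive for F4/80 and CD11b were sorted by flow cytometry. The labels name no other genotype, and each time had 3 libraries. Nothing in the sources says that replicate libraries were made from different animals. The p-values therefore reflect only how much these libraries varied, a spread that could be technical.

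Hepatocytes fill the blood with albumin, carrier proteins, protease inhibitors and lipoproteins, and they run the urea cycle, gluconeogenesis, amino acid breakdown and drug oxidation. Much of this program is driven from promoters bound by the liver-enriched factors HNF1 and HNF4. Macrophages are not known as makers of albumin or of most of the other proteins listed, so in a sort for macrophages these transcripts gauge how much hepatocyte RNA is present. Some are less specific. Arg2, the mitochondrial arginase, and Apoc1, an apolipoprotein, are also expressed by macrophages.

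Of the 33 genes, 27 matched a promoter window in the RefSeq table (GRCm38.p6), and Ttr, Trf, Apoc1, Apoc3, Cps1 and Arg2 were not matched. Each window held 250 bases before the transcription start and 50 after it. The motif GTTAAT, the core of HNF1 sites, was found on either strand in 8 of the 27 (29.6%), against 7.1% of all 32851 windows. These 8 were Alb, Serpina1a, Serpina1b, Serpina1c, Fabp1, Hnf4a, Pck1 and G6pc. CAAAGNNCA, a form of the site read by HNF4 and related receptors, was found in 5 (18.5%, against 6.36% of all windows), and TATAAA in 8 (29.6%, against 13.6%). A gene was counted if any of its windows held the motif, while the shares of all windows count single windows. These percentages are therefore not directly comparable, and the 3 Serpina1 genes, near copies here, were counted separately. These are matches of letters, not sites of binding. The 100 bases before the start are printed for the 3 Serpina1 genes and Fabp1, which carry the changes reported below, and for Alb as the reference transcript of the cell type. They are written 5′ to 3′ on the strand of the gene, with GTTAAT and TATAAA in capitals on whichever strand they occurred. The positions are chr12:103863620-103863719 (minus strand) for Serpina1a, chr12:103738190-103738289 (minus) for Serpina1b, chr12:103904951-103905050 (minus) for Serpina1c, chr5:90460770-90460869 (plus) for Alb and chr6:71199779-71199878 (plus) for Fabp1.
Serpina1a: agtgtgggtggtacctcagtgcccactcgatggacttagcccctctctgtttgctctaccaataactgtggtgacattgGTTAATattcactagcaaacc
Serpina1b: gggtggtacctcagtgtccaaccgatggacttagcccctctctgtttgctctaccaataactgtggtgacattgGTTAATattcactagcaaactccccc
Serpina1c: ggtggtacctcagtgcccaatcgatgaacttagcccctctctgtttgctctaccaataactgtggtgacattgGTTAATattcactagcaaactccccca
Alb: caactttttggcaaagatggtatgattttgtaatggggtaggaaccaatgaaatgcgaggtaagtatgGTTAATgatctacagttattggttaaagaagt
Fabp1: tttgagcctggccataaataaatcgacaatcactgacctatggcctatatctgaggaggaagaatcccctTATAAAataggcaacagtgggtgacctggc
The 3 Serpina1 stretches were near copies of each other. Once aligned, 91 of 95 bases (95.8%) were identical between Serpina1a and Serpina1b, 91 of 94 (96.8%) between Serpina1a and Serpina1c, and 96 of 99 (97.0%) between Serpina1b and Serpina1c. In all 3 the capitals lay in the same surroundings, close to the start. In Fabp1 the GTTAAT match lay outside the stretch printed.

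The libraries held 53297943 to 67951168 counts. Adgre1, which encodes F4/80, had 128 to 172 CPM at 0 h and 63.6 to 221 CPM at 48 h, and Itgam, which encodes CD11b, had 36.4 to 73.9 CPM at 0 h and 10.8 to 20.1 CPM at 48 h (CPM, counts scaled to a common library total with TMM factors). These genes are given because the sort used their proteins. The 48 h libraries stood apart from the others. The summed share of 12 macrophage and sort markers was 6.62% to 7.69% of the counts at 0 h, 3.71% to 7.27% at 24 h and 1.22% to 4.02% at 48 h. Over the same times the share of 14 liver endothelial markers was 0.0284% to 0.0310%, 0.0465% to 0.0842% and 1.17% to 1.46%, and that of 7 erythroid markers was 0.711% to 1.64%, 0.808% to 4.70% and 5.54% to 17.8%. No marker of these 3 lists was at 0 in any library. In the test described below, 9.86% of all genes were called higher and 8.95% lower at 48 h against 0 h. Of the 12 macrophage and sort markers 6 were called lower and 1 higher. Their median log2 fold change was -0.59, so the 12 did not all fall with their sum. Of 9 Kupffer cell markers 4 were called higher (44.4%) and 0 lower. Their share was 0.0454% to 0.114% at 0 h, 0.172% to 0.209% at 24 h and 0.146% to 0.681% at 48 h. Of 9 B cell markers 8 were higher, with a share of 0.00137% to 0.00406% at 0 h and 0.0514% to 0.0910% at 48 h, and of 9 T and NK cell markers 7 were higher, with 0.000296% to 0.000790% at 0 h and 0.00633% to 0.0139% at 48 h. Cd3e, Cd8a and Ncr1 were each at 0 in at least 1 library of 0 or 24 h. The share of mitochondrially encoded RNA was 2.37% to 4.53% at 0 and 24 h and 7.06% to 17.9% at 48 h.

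The hepatocyte transcripts did not separate the times. Together the 33 genes took 0.576%, 0.470% and 1.00% of the counts in replicates 1 to 3 at 0 h, 0.857%, 0.449% and 0.810% at 24 h, and 0.947%, 0.649% and 0.470% at 48 h. The 3 times overlapped, and the spread within 0 h nearly spanned the whole range. On the scaled level the sum was 7262 ± 2623 CPM at 0 h, 7949 ± 2881 CPM at 24 h and 5731 ± 1738 CPM at 48 h (SD, n = 3). Fabp1 gave a large part of it, with means of 2613, 2524 and 953 CPM. Without Fabp1 the sum was 4649 ± 1452, 5425 ± 1653 and 4778 ± 1446 CPM. As a share of the counts this was 0.314% to 0.614%, 0.343% to 0.574% and 0.395% to 0.794%, again with overlap. In bulk RNA, fewer hepatocytes and less RNA per hepatocyte cannot be told apart. The 112 other hepatocyte genes came from the same pathways and from lists of coagulation, bile acid and transcription factor genes. Their share was 0.370% to 0.618% at 0 h, 0.519% to 0.605% at 24 h and 0.349% to 0.539% at 48 h, again with overlap. They include Arg1 and Glul, which macrophages also express, so this sum is not a gauge of hepatocyte RNA alone. Arg1 had 22776 to 37114 counts at 0 h, 51874 to 159495 at 24 h and 3875 to 9118 at 48 h. Glul had 16846 to 23951, 18663 to 25982 and 19992 to 71036. The whole list had 186225 to 368080 counts in a library. The acute phase genes, which hepatocytes make in inflammation and several of which myeloid cells also make, had shares of 0.504% to 0.688% at 0 h, 0.542% to 0.734% at 24 h and only 0.134% to 0.224% at 48 h. Their 48 h libraries lay below all others, unlike those of the 33 genes.

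**Figure D1:**
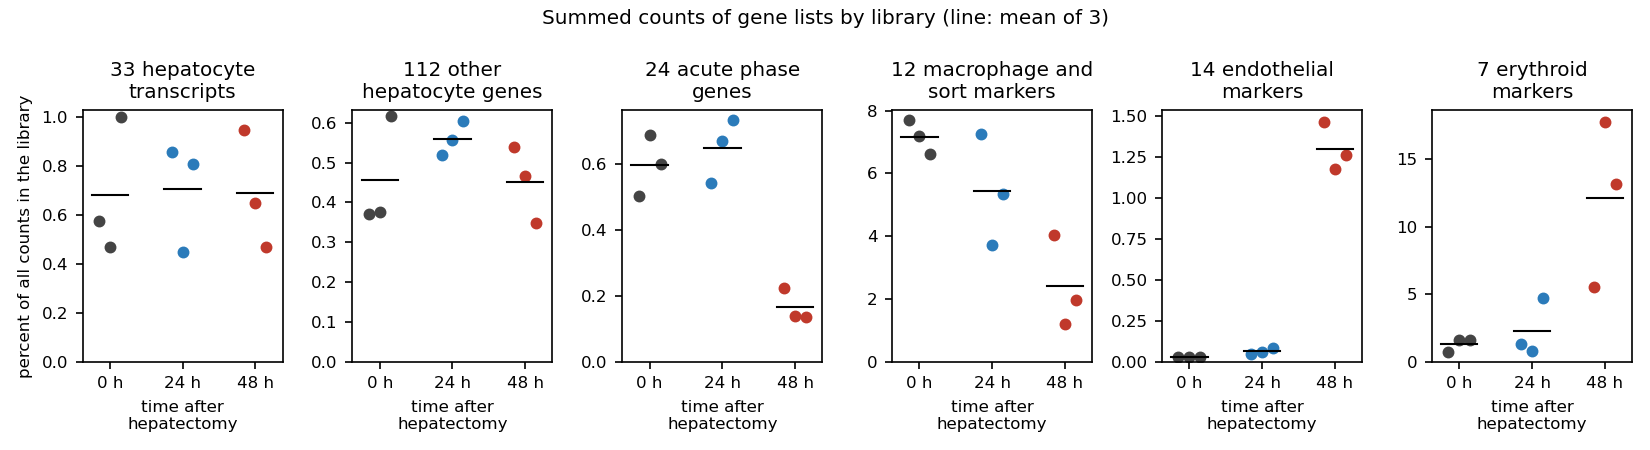
Summed counts of 6 gene lists as a percentage of all counts in a library (vertical axes, each from 0), by time after hepatectomy. Points are libraries (replicates 1 to 3 from left) and the line is the mean of 3. The 33 hepatocyte transcripts overlapped between all times (0.449% to 1.00%), while the acute phase list was low and the endothelial and erythroid lists were high at 48 h.

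Libraries of the same time differed widely in the 33 genes, and at 48 h the genes moved together in replicate 3. At 48 h replicate 3 was the lowest of its time for 32 of 33 genes and the highest for none, with replicate 2 highest for 20 and replicate 1 for 13. Against the mean log2 level of the other 48 h libraries, all 33 were lower in replicate 3, by 1.13-fold for Apoc1 to 7.10-fold for Apob, the structural protein of very low density lipoprotein. The median difference was -0.79 on the log2 scale, beside 0 for all genes tested. The other hepatocyte genes shared the pattern. Of 112, 92 were lower there, with a median of -0.69, and 4 were at 0 in that library. At 24 h replicate 2 was the lowest for 23 genes and the highest for 1, and at 0 h replicate 2 was the lowest for 20 and replicate 3 the highest for 18. Replicate 1 was more mixed, highest for 11 and lowest for 8 at 0 h, and highest for 14 and lowest for 8 at 24 h. The transcripts did not fall in proportion. Apob, Cyp3a11 and Cyp1a2 were 7.10-fold, 4.38-fold and 3.36-fold below in replicate 3 at 48 h, while Otc was 1.16-fold below. Over the 33, a library's difference from the others of its time was ranked against exon length (Spearman rho). In replicates 1 to 3, rho was 0.119, 0.19 and -0.169 at 0 h, -0.383, 0.494 and -0.182 at 24 h, and -0.392, 0.586 and -0.131 at 48 h. Over the 112 other hepatocyte genes rho was -0.132 to 0.17 in the 9 libraries, and over all genes tested with a known length it was -0.088 to 0.113. The part of exon length in these differences was not tested.

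**Figure D2:**
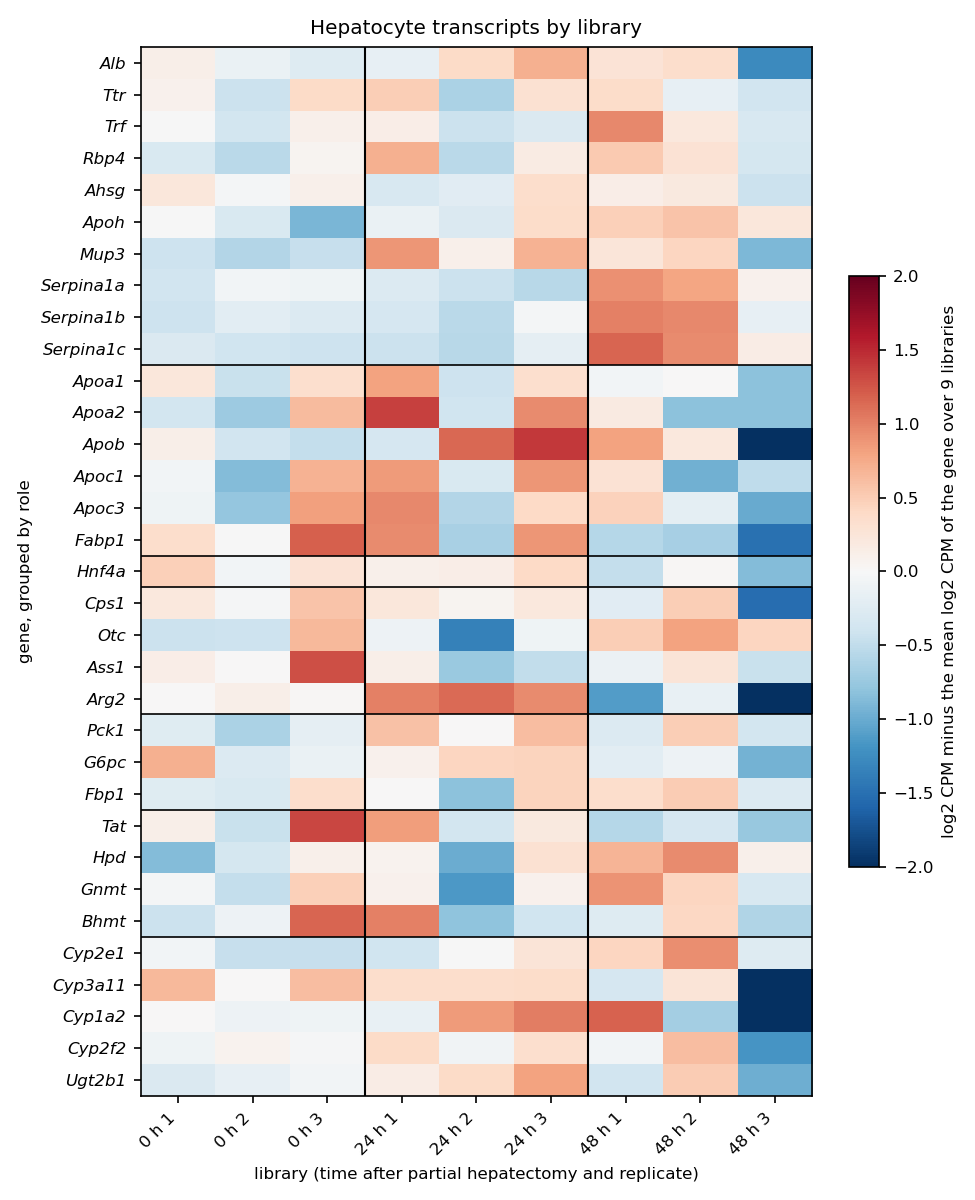
Level of each of the 33 genes in each library, as log2 CPM minus the mean of the gene over the 9 libraries (colour, which saturates at -2 and 2). Columns are libraries by time and replicate, and lines separate the times and the roles. Replicate 3 at 48 h was lower than the other 48 h libraries for all genes but Apoc1, and the Serpina1 rows are red in the other 48 h libraries.

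Between 0 and 24 h none of the 33 passed the test, while 0.0792% of all 20204 genes tested did, 0.0495% higher and 0.0297% lower (edgeR's quasi-likelihood test, Benjamini-Hochberg adjusted p under 0.05). Before adjustment, p was under 0.05 for 3 that were higher (3.89% of all genes) and for 1 that was lower (2.72%). DESeq2 called 1, Mup3, and limma-voom called 0, where they called 267 and 8 of all genes higher and 107 and 2 lower. Over the 33 the median log2 fold change was 0.16, beside -0.03 for all genes. For 4 genes the 24 h libraries were all above those of 0 h (12.1% of the 33, beside 8.37% of all genes), and for 0 they were all below (8.92% of all genes). These 4 were Mup3, a major urinary protein that carries pheromones, Arg2, Pck1, the cytosolic PEP carboxykinase of gluconeogenesis, and Ugt2b1, a glucuronosyltransferase. Between 0 and 48 h, 3 rose and 1 fell (12.1%, beside 18.8% of all genes). The 3 that rose are 9.09% of the 33, beside 9.86% of all genes called higher, and the 1 that fell is 3.03%, beside 8.95% called lower. The 48 h libraries were all above those of 0 h for 4 genes (16.5% of all genes) and all below for 2 (19.7%), and the median was 0.01. From 24 to 48 h 3 rose and 1 fell (12.1%, beside 19.8% of all genes), with a median of -0.37 beside 0.05. Of all genes, 10.2% were called higher and 9.6% lower. The 48 h libraries were all above those of 24 h for 3 of the 33 (17.2% of all genes) and all below for 4 (18.4%). In both comparisons with 48 h the share of the 33 that passed was below that of all genes, which was not tested. At 24 h against 0 h the shares cannot be compared, because 1 call among the 33 (3.03%) would already have exceeded 0.0792%. The comparisons share libraries and are not independent of each other.

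**Figure D3:**
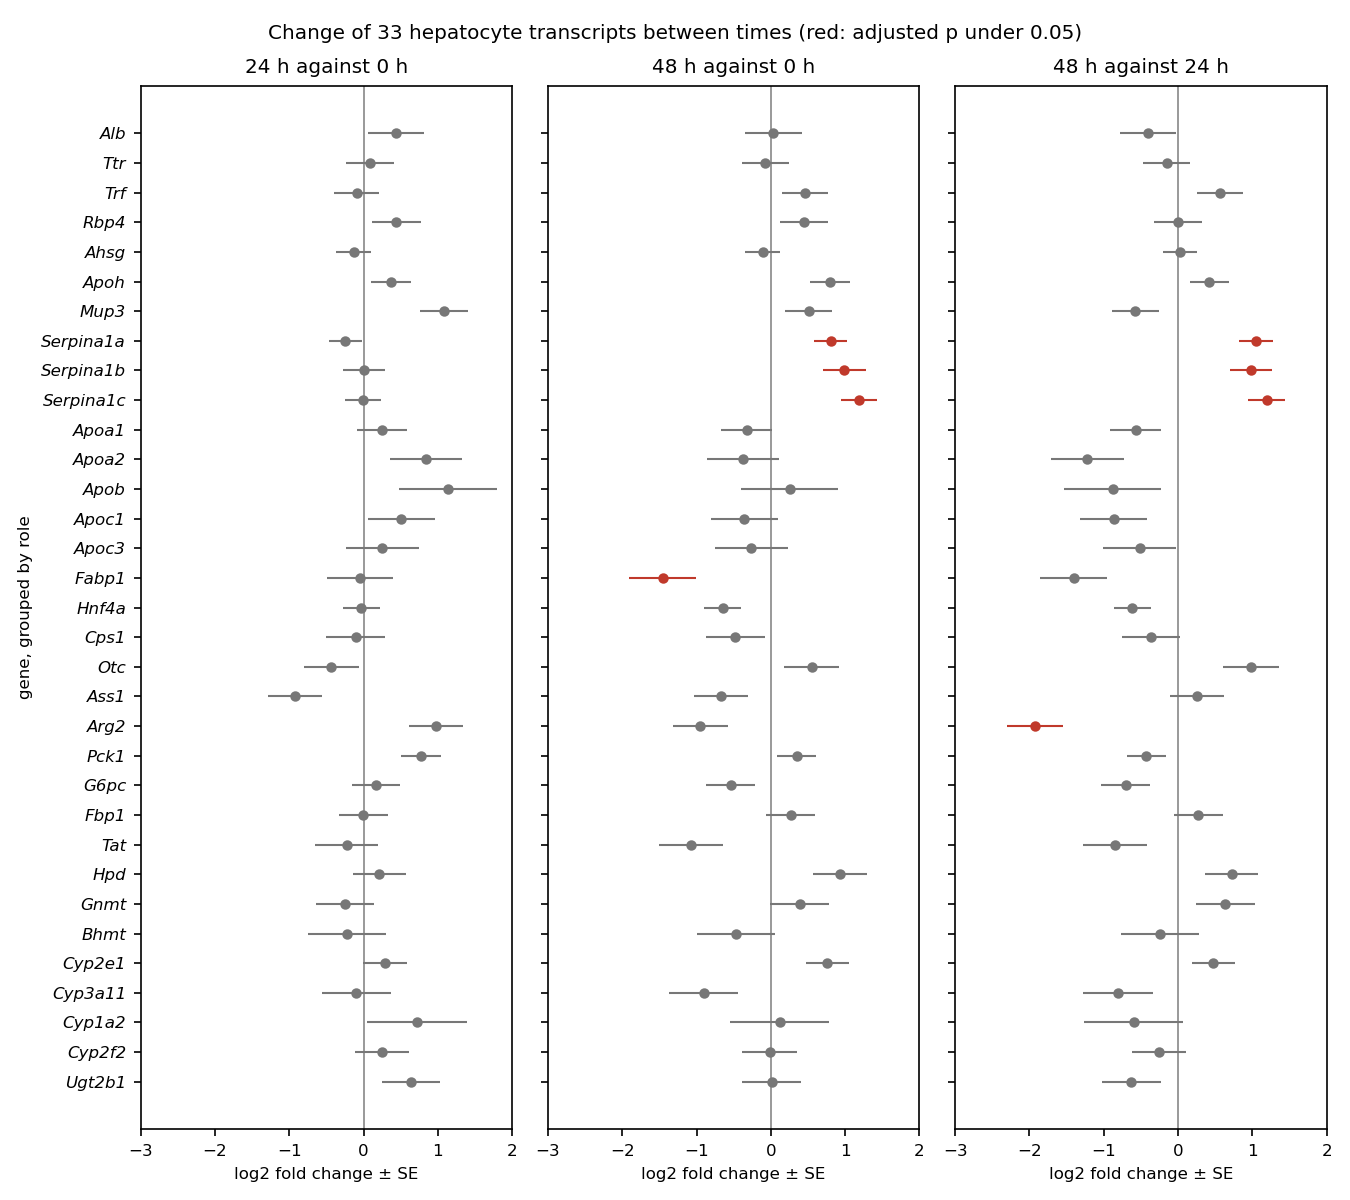
Log2 fold change with its standard error (horizontal axes) of each of the 33 genes for the 3 comparisons of times, from the edgeR fit over 9 libraries. Red marks adjusted p under 0.05. No gene is red at 24 h against 0 h, 3 Serpina1 genes are red on the right in both comparisons with 48 h, Fabp1 is red on the left at 48 h against 0 h and Arg2 at 48 h against 24 h.

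Among the 10 secreted carriers and inhibitors, the 3 alpha-1-antitrypsin genes Serpina1a, Serpina1b and Serpina1c, which encode inhibitors of neutrophil elastase, rose at 48 h. Serpina1c had 69.2, 63.8 and 63.2 CPM at 0 h, 63.0, 57.8 and 74.3 CPM at 24 h, and 190, 163 and 93.4 CPM at 48 h. All 48 h libraries were above all others. It was 2.28-fold higher at 48 h than at 0 h (log2 1.19, SE 0.25, edgeR adjusted p = 0.00762) and 2.29-fold higher than at 24 h (log2 1.19, SE 0.25, edgeR adjusted p = 0.00691). Serpina1a had 58.6, 73.5 and 71.8 CPM at 0 h, 63.2, 56.8 and 51.9 CPM at 24 h, and 143, 132 and 80.8 CPM at 48 h. Again every 48 h library was higher, by 1.75-fold on average against 0 h (log2 0.80, SE 0.23, edgeR adjusted p = 0.0315) and 2.07-fold against 24 h (log2 1.05, SE 0.23, edgeR adjusted p = 0.00874). Serpina1b had 80.7, 92.5 and 89.1 CPM at 0 h, 85.6, 74.0 and 104 CPM at 24 h, and 216, 209 and 96.1 CPM at 48 h. The 48 h libraries lay above those of 0 h, and the lowest of them overlapped with those of 24 h. The gene was 1.99-fold higher than at 0 h (log2 0.99, SE 0.28, edgeR adjusted p = 0.0344) and 1.98-fold higher than at 24 h (log2 0.98, SE 0.28, edgeR adjusted p = 0.0349).

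The 3 Serpina1 genes are close paralogs. In the GRCm38 annotation 35.1% of the 150-base windows of Serpina1a transcripts, 11.9% of those of Serpina1b and 50.5% of those of Serpina1c occurred unchanged in another member of the family, so the counts of single copies are uncertain. Summed with Serpina1d and Serpina1e, the family had 322, 356 and 331 CPM at 0 h, 339, 311 and 396 CPM at 24 h, and 904, 773 and 461 CPM at 48 h. No 48 h library overlapped with an earlier one. The sum, fitted as 1 row in an alternative added after the data were seen, was higher by 1.09 on the log2 scale at 48 h than at 0 h (SE 0.25, edgeR adjusted p = 0.0113) and by 1.03 than at 24 h (SE 0.24, edgeR adjusted p = 0.0139). Between 0 and 24 h the difference was 0.05 (SE 0.24). Of the single copies, Serpina1c passed the test in all 19 alternatives to the counting, scaling, test and samples, at 48 h against 0 h and against 24 h. Serpina1a and Serpina1b at 48 h against 0 h did not pass without any 1 of the 0 h libraries, or without replicate 1 or 2 of 48 h (edgeR adjusted p = 0.0658 to 0.112). Serpina1b at 48 h against 24 h passed with replicate 3 of 48 h left out (edgeR adjusted p = 0.00234) but with no other library left out (edgeR adjusted p = 0.0509 to 0.114). Replicate 3 of 48 h was the library of its time lowest in the summed hepatocyte transcripts. Without it, Serpina1a, Serpina1b and Serpina1c were higher at 48 h than at 0 h by 1.07, 1.33 and 1.48 on the log2 scale.

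None of the other 7 in this group passed the test. Alb, the main plasma protein, had 411, 347 and 316 CPM at 0 h, 338, 495 and 621 CPM at 24 h, and 456, 486 and 157 CPM at 48 h. The times overlapped, and its log2 fold change was 0.44 at 24 h against 0 h (SE 0.38, edgeR adjusted p = 1), 0.03 at 48 h against 0 h (SE 0.38, edgeR adjusted p = 0.968) and -0.40 at 48 h against 24 h (SE 0.38, edgeR adjusted p = 0.516). Mup3 had 71.3, 63.5 and 68.9 CPM at 0 h, 175, 102 and 154 CPM at 24 h, and 112, 128 and 50.7 CPM at 48 h. Its 24 h libraries were all above those of 0 h, but it did not pass the test (edgeR adjusted p = 0.355). Apoh, a phospholipid-binding plasma glycoprotein, had 17.6, 14.4 and 9.46 CPM at 0 h and 24.7, 26.4 and 20.9 CPM at 48 h. It did not overlap between these times and just missed the threshold (log2 0.80, edgeR adjusted p = 0.0628). Ttr and Rbp4, which carry thyroid hormone and retinol, Trf, the iron carrier transferrin, and Ahsg, the fetuin that binds calcium phosphate, had log2 fold changes of -0.13 to 0.44 at 24 h and of -0.11 to 0.46 at 48 h against 0 h. Trf shared 59.1% of its windows with the overlapping gene Gm20425 and is uncertain for that reason.

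Among the 6 genes of lipid transport, Fabp1, the liver fatty acid binding protein, fell at 48 h. It had 2198, 1703 and 3937 CPM at 0 h, 3308, 1100 and 3164 CPM at 24 h, and 1162, 1081 and 614 CPM at 48 h. All 48 h libraries were below all 0 h libraries, while replicate 2 of 24 h was as low as those of 48 h. The fold change was -1.46 on the log2 scale at 48 h against 0 h (SE 0.45, edgeR adjusted p = 0.0475) and -1.41 against 24 h (SE 0.45, edgeR adjusted p = 0.052). The first of these was close to the threshold. With 1 library left out it passed only where that library was replicate 2 of 24 h. The change ranged from -1.64 to -1.04 over these fits and was smallest without replicate 3 of 0 h (edgeR adjusted p = 0.176). Fabp1 was also the most abundant of the 33 per kb of exon, at 4724 CPM per kb at 0 h and 1723 at 48 h, followed at 0 h by Apoa2 with 947 and Apoc1 with 897. Alb was at 153 on this scale and Apob, the lowest, at 1.12.

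The apolipoproteins did not pass the test in any comparison. Apoa1, the main protein of high density lipoprotein, had 227, 142 and 244 CPM at 0 h, 338, 144 and 244 CPM at 24 h, and 185, 195 and 109 CPM at 48 h. Its log2 fold change was 0.24 at 24 h against 0 h (SE 0.34, edgeR adjusted p = 1), -0.33 at 48 h against 0 h (SE 0.34, edgeR adjusted p = 0.576) and -0.57 at 48 h against 24 h (SE 0.34, edgeR adjusted p = 0.281). Apoa2, its partner in the same particle, had 402, 315 and 809 CPM at 0 h, 1346, 394 and 996 CPM at 24 h, and 585, 295 and 294 CPM at 48 h. The spread within 24 h was wider than the difference between the times. Apob had 19.7, 13.95 and 13.1 CPM at 0 h, 14.4, 39.99 and 48.1 CPM at 24 h, and 31.6, 20.9 and 3.19 CPM at 48 h. Replicate 1 of 24 h was the highest of the 9 libraries for Apoa2 and the lowest of its time for Apob. Apoc1 and Apoc3, the small apolipoproteins that modulate lipoprotein clearance, were at 329 to 1175 CPM and at 28.9 to 113 CPM over the 9 libraries.

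Hnf4a, the nuclear receptor that maintains hepatocyte identity, had 28.4, 19.6 and 24.8 CPM at 0 h, 21.9, 22.3 and 27.0 CPM at 24 h, and 14.6, 20.7 and 11.2 CPM at 48 h. The 48 h libraries were below those of 24 h and overlapped with those of 0 h. The log2 fold change was -0.03 at 24 h against 0 h (SE 0.25, edgeR adjusted p = 1), -0.65 at 48 h against 0 h (SE 0.25, edgeR adjusted p = 0.102) and -0.62 at 48 h against 24 h (SE 0.25, edgeR adjusted p = 0.114). It passed the first of the comparisons with 48 h under upper-quartile scaling (edgeR adjusted p = 0.0449) and without replicate 2 of 48 h (edgeR adjusted p = 0.0388).

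In the group listed under the urea cycle, which disposes of ammonia, Arg2, the mitochondrial arginase that macrophages also express, fell from 24 to 48 h. It had 13.6, 14.7 and 13.8 CPM at 0 h, 27.2, 29.7 and 26.0 CPM at 24 h, and 6.24, 12.2 and 3.40 CPM at 48 h. No library of any time overlapped with another time, and the order was 24 h, 0 h and 48 h from high to low. The log2 fold change was 0.98 at 24 h against 0 h (SE 0.37, edgeR adjusted p = 0.564), -0.95 at 48 h against 0 h (SE 0.37, edgeR adjusted p = 0.103) and -1.93 at 48 h against 24 h (SE 0.38, edgeR adjusted p = 0.00512). The last passed under every alternative run. Arg1, the cytosolic arginase of the urea cycle, which is not among the 33 and which macrophages also make, had the same order of times, with 448 to 676 CPM at 0 h, 988 to 2950 CPM at 24 h and 58.9 to 142 CPM at 48 h. The steps before arginase did not show that order. Cps1, which makes carbamoyl phosphate, had 38.3, 32.3 and 49.2 CPM at 0 h, 38.5, 34.4 and 38.2 CPM at 24 h, and 28.1, 46.5 and 11.5 CPM at 48 h. Otc, which makes citrulline, had 25.2, 25.6 and 53.5 CPM at 0 h, 31.7, 13.4 and 32.2 CPM at 24 h, and 47.8, 59.1 and 46.0 CPM at 48 h. Its 48 h libraries lay above those of 24 h, without passing the test (log2 0.98, edgeR adjusted p = 0.0925). Ass1, the argininosuccinate synthase, had 220, 204 and 492 CPM at 0 h, 218, 121 and 143 CPM at 24 h, and 185, 242 and 149 CPM at 48 h, and 29.3% of its windows occurred in Gm5424.

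**Figure D4:**
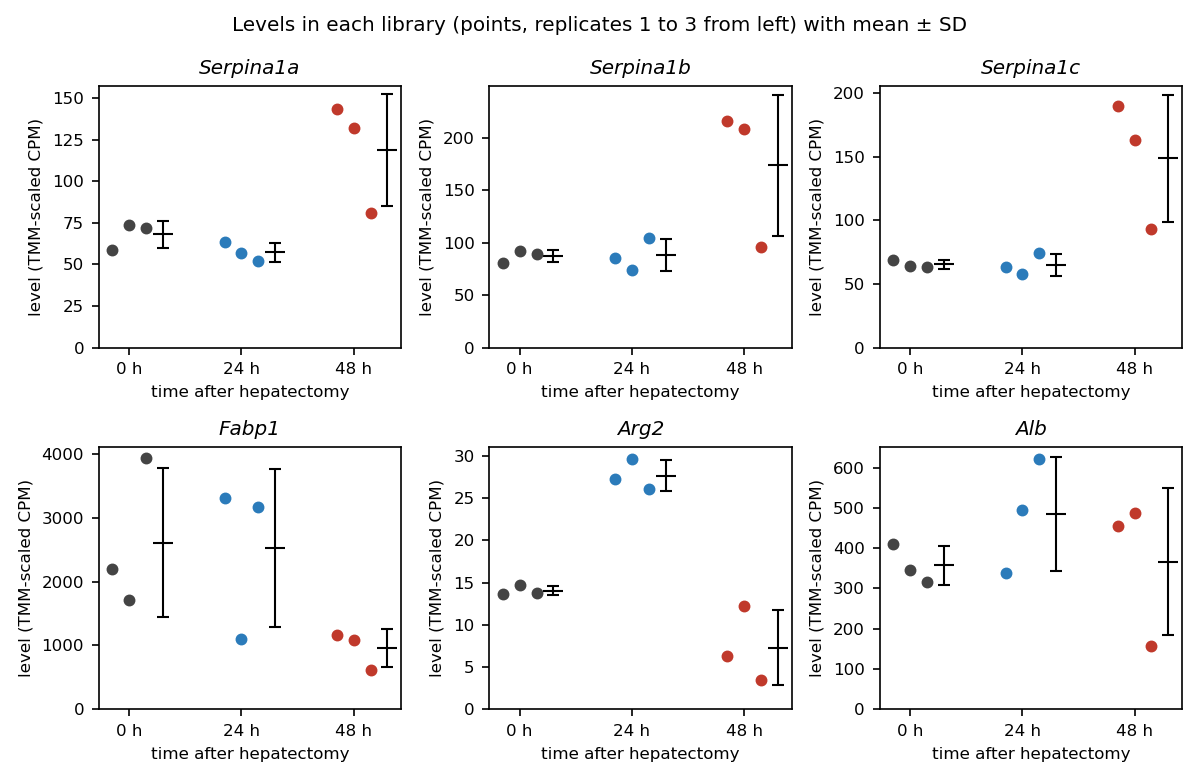
Level in TMM-scaled CPM (vertical axes, each from 0) of the 5 genes past the test and of Alb, by time after hepatectomy. Points are libraries (replicates 1 to 3 from left) and the bar is mean ± SD of 3. The Serpina1 genes were high in replicates 1 and 2 at 48 h and less so in replicate 3, Fabp1 was at or below 1162 CPM in all 48 h libraries, Arg2 did not overlap between any times, and Alb overlapped between all.

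The enzymes of glucose and amino acid metabolism did not pass the test. In gluconeogenesis Pck1 had 105, 80.3 and 110 CPM at 0 h, 187, 126 and 192 CPM at 24 h, and 104, 175 and 97.2 CPM at 48 h. It was above 0 h in every 24 h library (log2 0.77, edgeR adjusted p = 0.477). G6pc, the glucose-6-phosphatase that releases glucose, was at 7.70 to 15.2 CPM at 0 h and 4.83 to 8.68 CPM at 48 h, and Fbp1, the fructose bisphosphatase, at 94.8 to 149 CPM and 96.7 to 167 CPM. In amino acid and one-carbon metabolism Hpd, which breaks down tyrosine, had 64.2, 91.7 and 125 CPM at 0 h, 122, 58.5 and 144 CPM at 24 h, and 187, 224 and 124 CPM at 48 h. Tat, the aminotransferase before it in the same pathway, had 73.9, 49.7 and 171 CPM at 0 h, 121, 52.8 and 77.8 CPM at 24 h, and 45.7, 54.0 and 40.1 CPM at 48 h. The log2 fold change at 48 h against 0 h was 0.93 for Hpd (edgeR adjusted p = 0.101) and -1.07 for Tat (edgeR adjusted p = 0.113), so these neighbours in a pathway had opposite signs and neither passed. Gnmt, which consumes S-adenosylmethionine, was at 177 to 729 CPM and Bhmt, which remakes methionine from homocysteine, at 177 to 690 CPM over the 9 libraries. Bhmt shared 29.8% of its windows with the copies Gm5096 and Bhmt-ps1.

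None of the 5 genes of oxidation and conjugation passed the test. Cyp2e1, which oxidises ethanol, had 97.7, 74.0 and 74.0 CPM at 0 h, 77.2, 100 and 122 CPM at 24 h, and 136, 194 and 85.3 CPM at 48 h (log2 0.76 at 48 h against 0 h, edgeR adjusted p = 0.101). Cyp3a11, a drug oxidase, had 44.4, 28.5 and 43.7 CPM at 0 h, 36.3, 36.1 and 36.6 CPM at 24 h, and 22.4, 33.9 and 5.91 CPM at 48 h. Its 48 h libraries lay below those of 24 h (log2 -0.81, edgeR adjusted p = 0.267). Cyp1a2, which oxidises aromatic amines, was at 0.714 to 6.65 CPM and Cyp2f2, an oxidase of periportal hepatocytes and airway cells, was at 5.99 to 20.6 CPM over the 9 libraries. Ugt2b1 had a mean of 3.57 CPM at 0 h, 5.55 CPM at 24 h and 3.59 CPM at 48 h. Some of the 33 are used mainly in the portal region of the lobule and some around the central vein. The median log2 fold change at 48 h against 0 h was -0.25 over 6 periportal and 0.12 over 3 pericentral genes of the 33, and none of the 9 passed the test.

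The makeup of the hepatocyte RNA was then described apart from its amount, as the count of each gene in percent of the summed counts of the 112 other hepatocyte genes. Serpina1c was at 1.67%, 1.55% and 1.00% at 0 h, 1.04%, 1.00% and 1.08% at 24 h, and 4.63%, 3.66% and 3.30% at 48 h. Hpd was at 1.54%, 2.23% and 1.98% at 0 h, 2.01%, 1.01% and 2.10% at 24 h, and 4.57%, 5.04% and 4.40% at 48 h. Both were higher in every 48 h library. Fabp1 was at 52.9%, 41.4% and 62.5% at 0 h and 28.4%, 24.3% and 21.7% at 48 h, and was lower in every one. Alb was at 11.1%, 10.9% and 5.55% at 48 h, with replicate 3 still low on this scale. In all, 13 of the 33 did not overlap between 0 and 48 h, 12 above and 1 below. This was 39.4%, beside 28.4% of all genes on the same scale. Of all 20204 genes tested, 4040 lay above and 1708 below, so all genes also leaned upward on this scale. The 12 above among the 33 were Trf, Rbp4, Apoh, Mup3, the 3 Serpina1 genes, Otc, Fbp1, Hpd, Gnmt and Cyp2e1. With the 112 genes as the denominator, the other comparisons were nearer to all genes. They were at 24.2% beside 20.2% for 24 h against 0 h and 42.4% beside 40.7% for 48 h against 24 h. The denominator holds Arg1 and Glul, which macrophages also express. Without these, in an alternative added after the data were seen, 10 lay above and 3 below (39.4%, beside 25.2% of all genes). Trf and Mup3 then overlapped between 0 and 48 h, and the 3 below were Fabp1, Ass1 and Tat. Against Alb alone 7 lay above and 3 below (30.3%, beside 21.3% of all genes). At 24 h against 0 h, leaving out Arg1 and Glul gave 24.2% beside 7.64%. There 2 above and 6 below became 5 above and 3 below. For all genes, 399 above and 3680 below became 670 above and 873 below. At 48 h against 24 h, leaving out Arg1 and Glul gave 36.4% beside 23.6%. No test was made on these counts, since an exact permutation test of 3 against 3 cannot go below p = 0.1.

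The 112 other hepatocyte genes, from lists of the same pathways and of coagulation, bile acid and transcription factor genes, gave a similar picture. None passed the test at 24 h against 0 h (before adjustment p was under 0.05 for 5 that were higher and 3 that were lower, and DESeq2 called 3 and limma-voom 0). At 48 h against 0 h 6 rose and 4 fell (8.93%, beside 18.8% of all genes). Those that rose included Khk, the fructose kinase, Tdo2 and Aass, which start tryptophan and lysine breakdown, Cyp8b1, the sterol 12-alpha-hydroxylase of cholic acid synthesis, and Nr5a2, a nuclear receptor of bile acid genes. Cyp8b1 had 3.30, 2.53 and 2.52 CPM at 0 h and 13.98, 15.96 and 7.10 CPM at 48 h, and Aass had 21.7, 19.0 and 22.8 CPM at 0 h and 47.6, 81.7 and 63.6 CPM at 48 h. Those that fell were Arg1, Nags, which makes the activator of Cps1, F5, coagulation factor V, and Adh1, the main alcohol dehydrogenase. Adh1, the most abundant gene of its list, had 719, 715 and 1981 CPM at 0 h and 429, 448 and 310 CPM at 48 h (log2 -1.53, SE 0.48, edgeR adjusted p = 0.0488), with replicate 3 of 0 h the highest, as for Fabp1. From 24 to 48 h 6 rose and 3 fell (8.04%, beside 19.8% of all genes).

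By contrast, 12 of 24 acute phase genes fell and 1 rose at 48 h against 0 h (54.2% called). Mt1 and Lrg1 were the most abundant of the list. Mt1, a metallothionein, had 1666 to 2051 CPM at 0 h and 362 to 676 CPM at 48 h, and Lrg1, a secreted glycoprotein also made by neutrophils, had 1039 to 2375 CPM at 0 h and 69.9 to 101 CPM at 48 h. Lbp, the carrier of bacterial lipopolysaccharide, was the 1 that rose. The 10 neutrophil markers did not move together at 48 h against 0 h. S100a8, the most abundant of them, fell, Camp, Ngp and Ltf, which encode granule proteins, rose, and the median log2 fold change of the 10 was 0.19. Their summed level, to which S100a8 gave the largest part in every library, went from 4834 to 12093 CPM at 0 h to 1574 to 2810 CPM at 48 h, and no neutrophil marker was at 0 in any library. The part of these markers, and of those of the other cell types given above, in the values of the hepatocyte genes was not tested.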

How the data were processed

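RNA of the 9 libraries was measured by RNA sequencing. The counts the authors deposited, whole numbers for each Ensembl gene, had not been scaled to depth. CASAVA 1.8, HISAT2 2.0.5 plus featureCounts 1.5.0-p3 are the tools in the submitters' processing notes. The genome build used was not given in the sources used here. The deposited counts were treated as estimated counts, because multiples of 4 made up 40.9% to 47.6% of the values between 4 and 40 and no source says why, so a unit is not 1 fragment and totals do not give the counting error. All 9 columns were used, and 52073 of 56691 IDs had a symbol.

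Genes were filtered with filterByExpr (minimum count 10), leaving 20204, scaled with TMM factors, and modelled over all 9 libraries by edgeR's quasi-likelihood fit with a term for time (edgeR 4.0.16, R 4.3.3). P-values were adjusted by Benjamini-Hochberg over all genes tested, with a threshold of 0.05. Levels are TMM-scaled CPM with the SD over 3 libraries, and levels per kb use the exon length of the GRCm38 annotation. Fitting was tested on simulated data. Alternatives were RLE and upper-quartile factors, hepatocyte genes left out of the totals and factors, other filters, DESeq2 1.42.0, limma-voom (limma 3.58.1), only the times compared, a block for the replicate number, counts divided by 4 and each library left out. Those added after seeing the data are named as such.

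The 33 genes, the lists, the motifs and the sequences shown were chosen with earlier results of these data known. All 33 are named. Values in every library are given where a result turns on them, fold changes and p-values for genes past the threshold and for Alb, Apoa1, Hnf4a and Arg2, and of other lists at most the 2 of highest mean level and genes in counts of 5 or fewer. Fold changes of further genes among the 33 that did not overlap between times or missed the threshold narrowly, and the sort markers Adgre1 and Itgam, were added after their values were seen. The counts of libraries of 1 time differed by chi-square values per gene of 99.97 to 688.7, so none was a copy of another. The values of 1 gene of the other hepatocyte lists are not reported here.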

Additional observations from a re-analysis of the deposited data

How the results depend on the processing

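Serpina1c at both comparisons with 48 h, Serpina1a at 48 h against 24 h and Arg2 at 48 h against 24 h passed under every alternative run, and no direction reversed. Counts among the 33 moved as follows. At 24 h against 0 h, DESeq2 and the fit of only the times compared called 1 higher each. At 48 h against 0 h, 3 higher became 6 with DESeq2 and 1 with upper-quartile factors, only the times compared or the replicate block, and 1 lower became 0 with RLE factors or the replicate block and 2 with upper-quartile factors or limma-voom. At 48 h against 24 h, 1 lower became 3 with DESeq2 and 2 with upper-quartile factors, no filter, at least 10 counts in every library or counts divided by 4. Leaving out each library gave 1 to 5 higher and 0 to 2 lower at 48 h against 0 h (5 and 0 without replicate 3 of 48 h), 2 to 3 higher and 1 to 2 lower at 48 h against 24 h, and 0 at 24 h. Of all genes, at 48 h against 0 h, 1992 higher and 1809 lower became 2714 and 2379 with DESeq2, 1809 and 1200 with only the times compared, 1663 and 1495 with the replicate block, 2091 and 1706 with RLE factors and 1875 and 2049 with limma-voom (1303 to 2087 and 977 to 2111 without 1 library). At 48 h against 24 h, 1940 lower became 2529 with DESeq2, 2318 with upper-quartile factors, 1591 with no filter, 1807 with at least 10 counts and 2002 with counts divided by 4. At 24 h, 10 higher became 267 with DESeq2 and 37 with only the times compared.

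Among the 112 other hepatocyte genes, those higher at 24 h became 2 with no filter and 3 with DESeq2. At 48 h against 0 h DESeq2 called 10 higher and 7 lower, only the times compared called 2 lower, and leaving out each library gave 3 to 9 higher and 1 to 4 lower. At 48 h against 24 h DESeq2 called 6 lower, and leaving out each library gave 3 to 7 higher and 2 to 5 lower.

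Upper-quartile factors moved the median of all genes at 48 h against 0 h from -0.04 to -0.19 and the calls from 1992 higher and 1809 lower to 1674 and 2360. The replicate numbers did not pair the libraries, since same-numbered libraries correlated at -0.015 to 0.07, and with the replicate block Serpina1a (0.77), Serpina1b (0.96) and Fabp1 (-1.34) at 48 h against 0 h and Serpina1b (0.94) at 48 h against 24 h kept their sign without passing. Upper-quartile factors and the fit of only the times compared also lost Serpina1a and Serpina1b at 48 h against 0 h and Serpina1b at 48 h against 24 h. Counting error cannot be given for these units.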
